A study of Mus musculus with 6 samples.

Results

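The genes described here build the machinery that copies DNA: 43 mouse genes of the 48709 in the count table, chosen by their symbols and known functions with earlier results of these data known, while the rule itself uses no measured value. They form the origin recognition complex (Orc1 to Orc6), the factors that load or restrain the replicative helicase (Cdc6, Cdt1, Gmnn), the core helicase (Mcm2 to Mcm7), the factors that switch it on (Mcm10, Cdc45, Gins1 to Gins4), the sliding clamp and its loader (Pcna, Rfc1 to Rfc5), the polymerases and primase (Pola1, Pola2, Prim1, Prim2, Pole, Pole2, Pold1, Pold2, Pold3), the flap nuclease and ligase that join the lagging strand (Fen1, Lig1), the proteins that coat single-stranded DNA (Rpa1, Rpa2, Rpa3) and the reductase that makes deoxynucleotides (Rrm1, Rrm2). All 43 were found, all 43 passed the filter on low counts, and 0 were left out.

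The RNA came from ovaries of 13.5 dpc embryos carried by wild-type CD1 females. From 10.5 to 13.5 dpc exposed dams received APAP (acetaminophen, 30 mg/kg/day) and IBU (ibuprofen, 15 mg/kg/day), both inhibitors of prostaglandin synthesis, in 4 alternating gavages a day at 3 h intervals, and the control dams received ethanol, the diluent. Each of the 6 libraries was made from its own pool of ovaries. By the methods, a pool joined embryos of different dams from the same independent experiment. A value is thus an average over a pool, and p-values measure the spread between pools. Exposed samples carry only IBU in their titles but both drugs in the exposure label and in the methods, and are called APAP+IBU here. Between 37811968 and 48954631 reads were counted per library.

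As background, DNA is copied in a fixed order of events. In G1 the origin recognition complex marks the origins and, with CDC6 and CDT1, loads MCM2-7 rings around the DNA, which is called licensing, and geminin (the product of Gmnn) later blocks CDT1 so that no origin fires again in the same cycle. At S phase the rings are joined by CDC45 and the GINS complex, the strands part, and the polymerases, the clamp and RPA act at the fork. Transcription of many of these genes is driven by E2F factors at the G1 to S transition, so that their RNA is abundant in dividing cells. In the ovary at 13.5 dpc, germ cells are leaving the mitotic cycle and copy their DNA a last time before meiosis, while the somatic cells around them still divide to differing degrees.

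Many promoters of the members hold letters that E2F factors are known to bind, and stretches of 5 promoters are shown so that these letters can be read beside the values. RefSeq start-site windows on GRCm38.p6, which run from 250 bases before the start site to 50 bases after it, were at hand for 35 of the 43 members. Windows for Gmnn, Mcm4, Gins1, Gins2, Gins4, Rfc2, Prim2 and Pole were not used here. An E2F-type motif was searched for in 4 spellings of 8 letters, TTTCCCGC, TTTGGCGC, TTTCGCGC and TTTGCCGC, on both strands, where matches may overlap. The CCAAT box, bound by the factor NF-Y, was searched for as CCAAT, also on both strands. Each sequence below runs 5′ to 3′ on the strand of the gene, from base -170 to base -31 before the start site, and capitals mark the letters of an E2F-type motif or a CCAAT box (ATTGG on the other strand). The genes are Mcm6 and Mcm5, subunits of the helicase, at chr1:128359736-128359875 (minus strand) and chr8:75109339-75109478 (plus strand), Pola1, the catalytic subunit of polymerase alpha, at chrX:93632186-93632325 (minus strand), Orc3 at chr4:34614973-34615112 (minus strand) and Rpa2 at chr4:132768190-132768329 (plus strand).
Mcm6: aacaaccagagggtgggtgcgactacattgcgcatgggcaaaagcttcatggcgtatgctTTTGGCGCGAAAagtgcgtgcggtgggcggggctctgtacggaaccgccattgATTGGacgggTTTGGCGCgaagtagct
Mcm5: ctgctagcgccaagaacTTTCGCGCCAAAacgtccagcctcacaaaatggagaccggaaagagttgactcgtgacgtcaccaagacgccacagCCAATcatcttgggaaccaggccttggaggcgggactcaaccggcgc
Pola1: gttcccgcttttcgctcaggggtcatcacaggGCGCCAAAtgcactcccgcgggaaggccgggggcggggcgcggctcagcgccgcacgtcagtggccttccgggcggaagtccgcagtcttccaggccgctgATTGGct
Orc3: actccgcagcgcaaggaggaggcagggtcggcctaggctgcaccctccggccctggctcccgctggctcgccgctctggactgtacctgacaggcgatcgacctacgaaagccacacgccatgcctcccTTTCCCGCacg
Rpa2: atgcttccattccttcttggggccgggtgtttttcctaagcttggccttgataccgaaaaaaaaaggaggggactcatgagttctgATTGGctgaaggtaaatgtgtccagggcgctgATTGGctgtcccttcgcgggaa
In Mcm6 and Mcm5 neighbouring E2F-type motifs overlap head to head and form a run of 12 capitals, and Mcm6 holds another copy 5 bases after its CCAAT box. Rpa2, in contrast, holds only CCAAT boxes in this stretch. The like stretch of Orc4, from base -170 to base -44, is not printed and holds neither kind of letters. The printed promoters were picked and do not stand for the shares over all members. An E2F-type motif stood in at least 1 window of 15 of the 35 members, or 42.9%. It stood in 2.6% of all 27025 genes with a window and in 4.2% of the 13495 tested genes with one. The CCAAT box was in 65.7% of the members and in 42.3% of the tested genes. By role, the E2F-type motif was found in 4 of 5 core helicase genes, in 2 of 6 origin recognition genes, and in 0 of 3 RPA genes. A list of 25 mitotic genes, set beside the members because these genes also mark dividing cells, had the motif in 1 of 20 windows and the CCAAT box in 16 of 20. These are matches of letters, and no binding was measured.

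**Figure D1:**
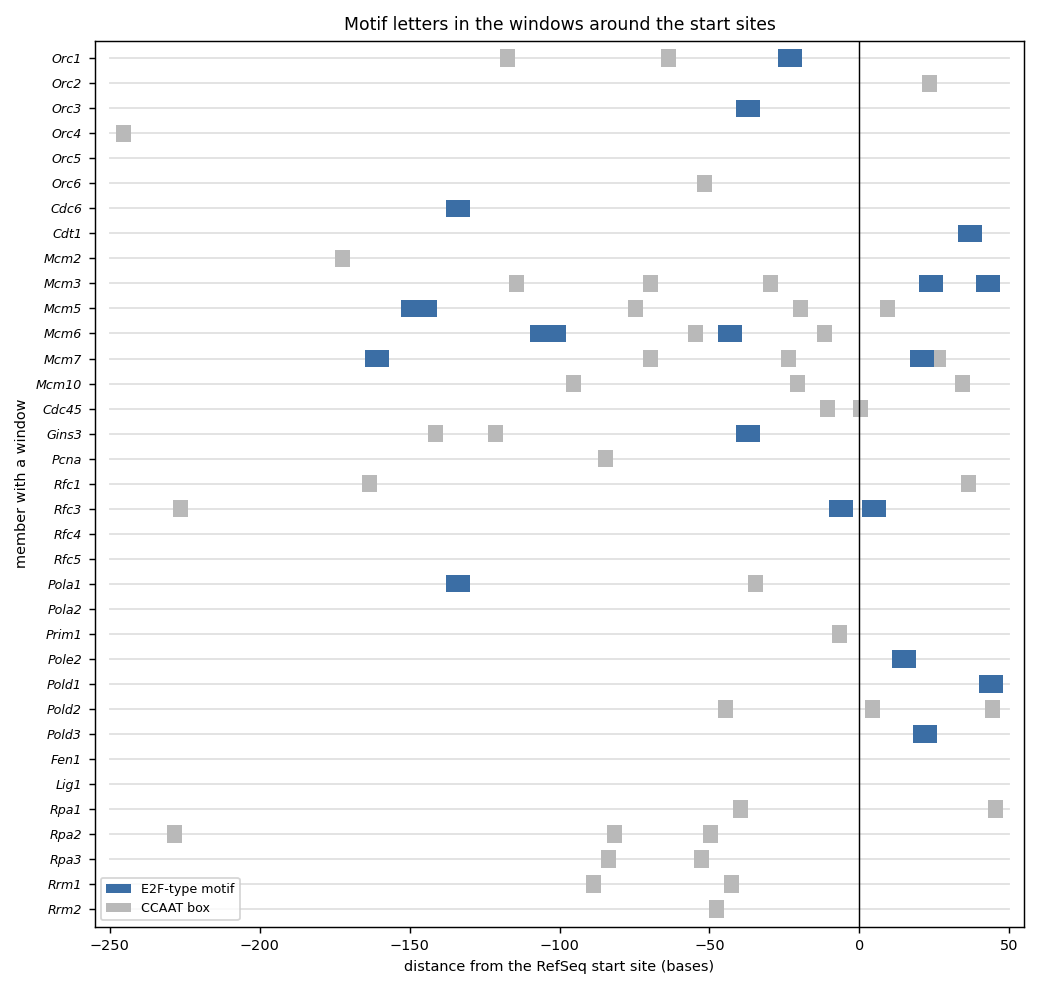
Positions of E2F-type motifs (blue) and CCAAT boxes (grey) in the window of each member, in bases from the RefSeq start site (line at 0), with 1 row per member and, where RefSeq gives several windows, the one nearest the annotated 5′ end of the gene. Of the core helicase genes, Mcm7 has E2F-type motifs on both sides of the start site, Mcm5 and Mcm6 before it and Mcm3 after it. Mcm2 has no such motif, and the RPA and reductase genes show CCAAT boxes only. Lig1 is counted as a member with the motif because of another of its windows, which is not drawn.

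Before the results, replicate 3 of each group is set apart for its liver RNA, a choice made with earlier results of these data known. Summed over 6 genes made by the liver, such as Afp and Alb, the level in CPM (read counts per library scaled to a common total, with TMM factors) was highest in APAP+IBU replicate 3 at 2787, followed by control replicate 3 at 1731, and the remaining 4 libraries had 163 to 493, with no liver gene at 0 in any library. Markers of red blood cells summed to 3907 to 10980 CPM in controls and 1867 to 6277 CPM in exposed ovaries, highest among the exposed in replicate 3. Germ cell markers such as Ddx4 and Dazl (1251 to 1642 CPM over 8 genes) and markers of ovarian supporting cells such as Foxl2 (339 to 602 CPM over 6 genes) were present in every library, so the defining markers of the labelled tissue were not missing, and 5 testis markers summed to 15.4 to 34.7 CPM. A list of 6 spermatid genes, foreign to a fetal ovary, summed to 30.1 to 118 CPM in controls and 1.31 to 4.67 CPM in exposed libraries. Replicate 3 was not alone in standing out. Control replicate 1 had the highest spermatid sum and control replicate 2 the highest red blood cell sum. On the first principal component, the main axis of variation over all tested genes, control replicate 1 stood furthest out at -82.4. There, control replicate 2 was at -37.1, APAP+IBU replicates 1 and 2 at 38.9 and 41.9, control replicate 3 at 23.4 and APAP+IBU replicate 3 at 15.4. Without replicate 3 the groups thus lay apart on this axis, and both replicates 3 lay between them. On the second component control replicate 3 was at -45.0 and APAP+IBU replicate 3 at -33.7, and the remaining libraries had 2.0 to 34.6. The genes were tested in 4 edgeR fits. These used all 6 libraries, or replicates 1 and 2 of each group only (4 libraries). Each was run as counted and after a correction of every library for gene length and GC content. In RNA from whole tissue, fewer cells of a type and less RNA per cell cannot be told apart. Among the other lists of 4 genes each, macrophage markers summed to 47.7 to 59.8 CPM in controls, 39.4 and 38.6 CPM in APAP+IBU replicates 1 and 2 and 59.8 CPM in APAP+IBU replicate 3, and stroma markers to 857 to 1325 CPM in controls and 758 to 926 CPM in exposed libraries. Endothelial markers summed to 325 to 438 CPM and mesonephric markers to 34.6 to 72.4 CPM over all libraries. Of all these markers, 1 testis gene was at 0 in control replicate 2 and no other was at 0 anywhere. The part of liver, blood, spermatid, macrophage or stroma RNA in the results on the replication genes was not tested.

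Summed over all members, the level of the replication genes was somewhat lower in APAP+IBU replicates 1 and 2 and at the control level in APAP+IBU replicate 3. The summed level of the 43 genes was 5557, 5107 and 5543 CPM in control replicates 1, 2 and 3, and 4489, 4683 and 5588 CPM in APAP+IBU replicates 1, 2 and 3. The groups overlapped through APAP+IBU replicate 3, which held the highest sum of all. Abundant genes weigh most in such a sum, and the role groups did not all follow it. The origin recognition genes summed to 370 and 365 CPM in control replicates 1 and 2, and to 440 and 451 CPM in APAP+IBU replicates 1 and 2. For 34 of the 43 members (79.1%) APAP+IBU replicate 3 lay above both other exposed libraries, which was so for 40.4% of all tested genes, and for all 6 core helicase genes. Control replicate 3 lay above both other controls for 23 members (53.5%), against 41.1% of tested genes. Among the 6 core helicase genes, control replicate 3 lay above both other controls for 3. High levels in replicate 3 were not particular to the members. For the 25 mitotic genes replicate 3 held the highest sum of each group, 3675 CPM in controls and 3500 CPM in exposed ovaries. The same was so for 2 lists described below, 39 other replication genes (3937 and 3719 CPM) and 13 genes of the E2F family (838 and 857 CPM).

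**Figure D2:**
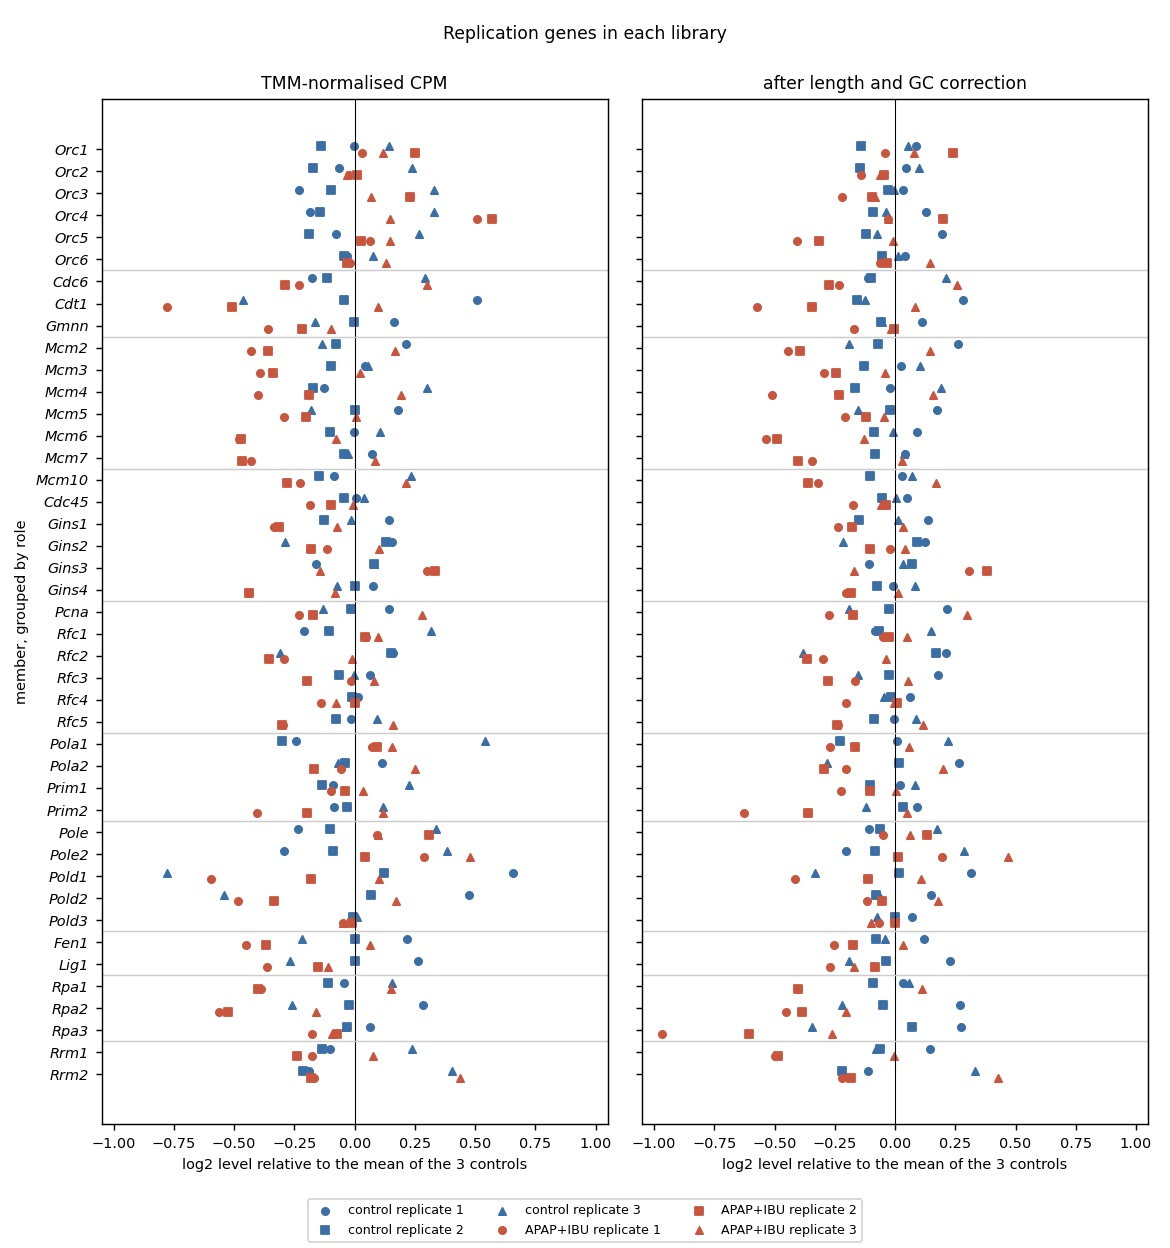
Level of each member in each library as log2 CPM minus the mean log2 CPM of the 3 controls, as counted (left) and after the length and GC correction (right), with controls in blue, APAP+IBU in red and replicates 1, 2 and 3 as circles, squares and triangles. The red circles and squares of Mcm2 to Mcm7 and of Rpa1 and Rpa2 lie left of 0 in both panels while their red triangles lie nearer to 0 or right of it, and the scatter of Orc3 and Orc4 narrows on the right.

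With all 6 libraries, 0 of the 43 members passed an adjusted p of 0.05 in edgeR's quasi-likelihood test, higher or lower, where the share over the 20167 tested genes was also 0% higher and 0% lower. The adjusted p of the members ran from 0.692 to 0.968. At an unadjusted p under 0.05, 0 members were higher (3% of all tested genes were) and 1 was lower, Rpa2 (3.21% of all tested genes were). DESeq2 called 0 members at its adjusted threshold, where it called 0.953% of genes in either direction. At the unadjusted one it had 0 members higher (4.12% of its tested genes) and 1 lower (3.52%). The median log2 fold change of the members was -0.096, with 12 above 0 and 31 below, beside -0.0047 over all tested genes. All 3 exposed libraries lay below all 3 controls for 3 members, Gins4, Pold3 and Rpa3, and above them for 0, while 5.92% of tested genes did not overlap in the first direction and 4.78% in the second. With 3 libraries against 3, an exact permutation test of such a gene cannot go below 0.1. After the length and GC correction the median was -0.13 (-0.0058 over all tested genes), and at an unadjusted p under 0.05 there were 3 lower members, Mcm6, Rpa2 and Rpa3, and 0 higher ones, beside 4.98% lower and 4.25% higher of all tested genes. Without control replicate 3 the members at this unadjusted threshold numbered 11, of which 5 were higher (15.1% of tested genes were) and 6 lower (15.4%). Without APAP+IBU replicate 3 they also numbered 11, of which 1 was higher (5.15%) and 10 were lower (6.22%). Without control replicate 1, control replicate 2, APAP+IBU replicate 1 or APAP+IBU replicate 2 they numbered 0. In those fits 0.749% to 1.2% of all tested genes were higher and 2.03% to 2.35% lower.

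With replicates 1 and 2 of each group, 13 members were called lower and 4 higher at an adjusted p under 0.05. The lower ones were Cdt1, Gmnn, Mcm2, Mcm3, Mcm6, Mcm7, Gins4, Rfc2, Pold1, Pold2, Fen1, Rpa1 and Rpa2, and the higher ones Orc3, Orc4, Pola1 and Pole. Calls were frequent across the whole table in this fit, 12.9% of the 20633 tested genes being lower and 14.2% higher. The members' median log2 fold change was -0.12, against -0.0032 over all tested genes. After the length and GC correction 9 members were called lower (7.3% of tested genes) and 0 higher (5.83%), and the median was -0.20 against -0.012. At an unadjusted p under 0.05, 7 members were higher (20.9% of tested genes) and 19 lower (20%) as counted, and 1 was higher (14%) and 18 lower (16.5%) after the correction. The 9 with an adjusted p under 0.05 after the correction were Mcm2, Mcm6, Mcm7, Rfc2, Rpa1 and Rpa2, which were called lower in both versions, and Prim2, Rpa3 and Rrm1, which were called lower only after the correction.

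**Figure D3:**
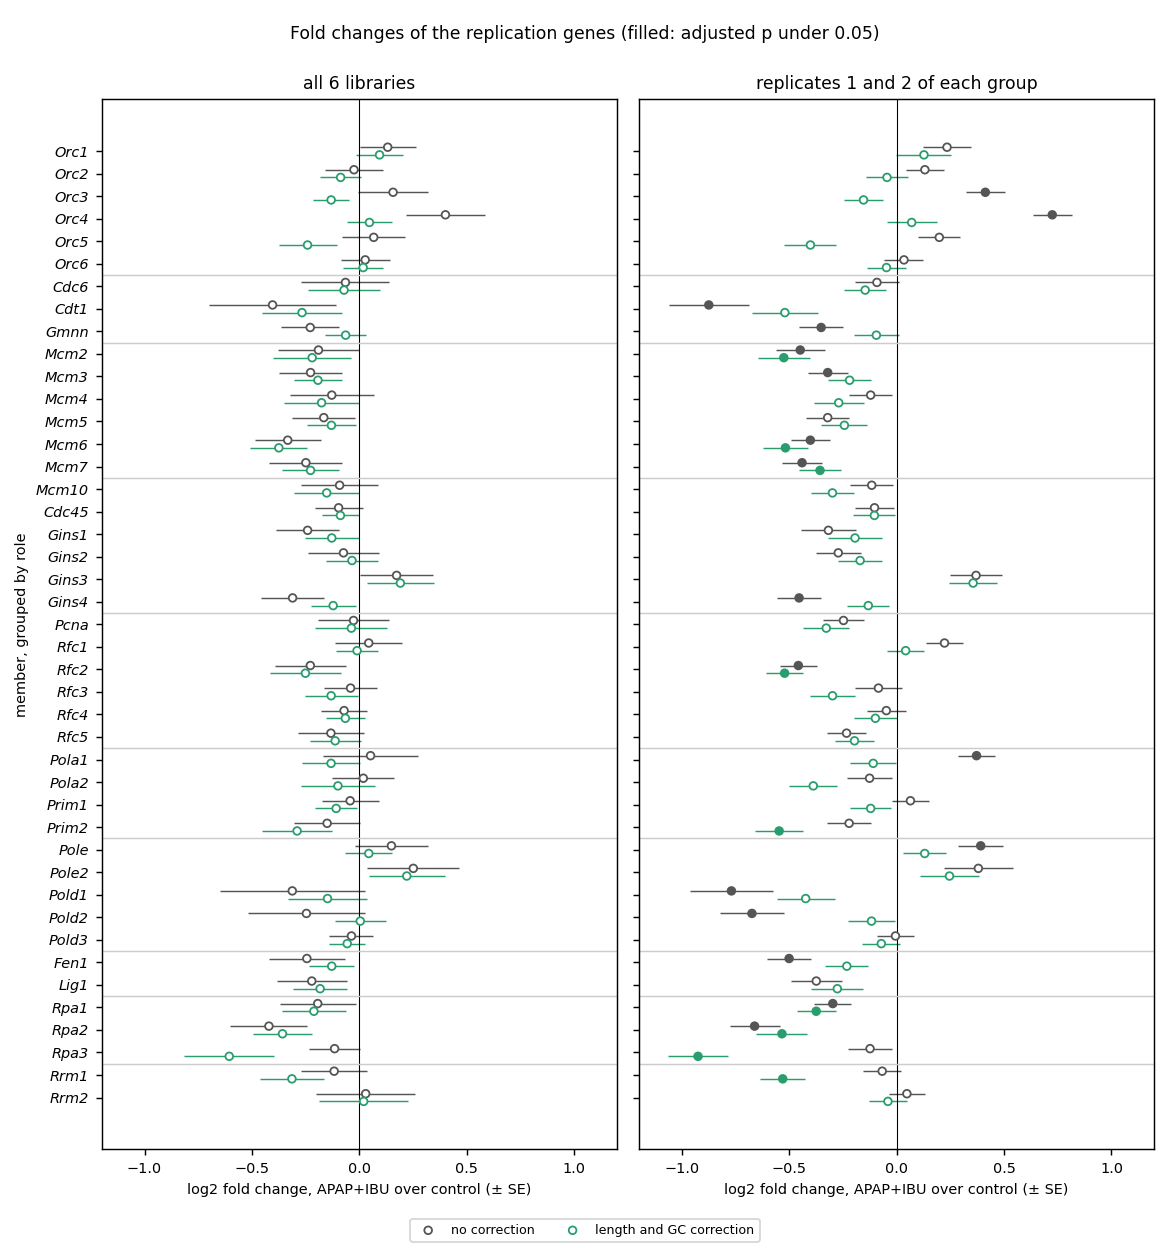
Log2 fold change of each member, APAP+IBU over control, with its standard error (SE), for all 6 libraries (left) and for replicates 1 and 2 (right), as counted (grey) and after the length and GC correction (green), filled where the adjusted p is under 0.05. No symbol is filled on the left. On the right, Mcm2, Mcm6, Mcm7, Rfc2, Rpa1 and Rpa2 are filled in both colours, and Orc3 and Orc4 in grey only.

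The fold changes of the members as counted were ordered by base composition. GC content of the longest transcript ran from 34.16% in Rpa3 to 61.01% in Pold1, with a median of 47.88% (49.36% over tested genes), and the summed exon length ran from 1136 bases in Rpa3 to 11160 in Pole. With replicates 1 and 2, Spearman's rho between log2 fold change and GC content was -0.74 across the 43 members and -0.47 across 20567 genes, and with all 6 libraries it was -0.66 across the members. After the correction, it was -0.14 and -0.068 across the members. These are descriptions across genes of the same libraries, and genes are not independent replicates. The AT-rich Orc3 and Orc4 stood at the upper end and the GC-rich Cdt1, Pold1 and Pold2 at the lower end before the correction.

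**Figure D4:**
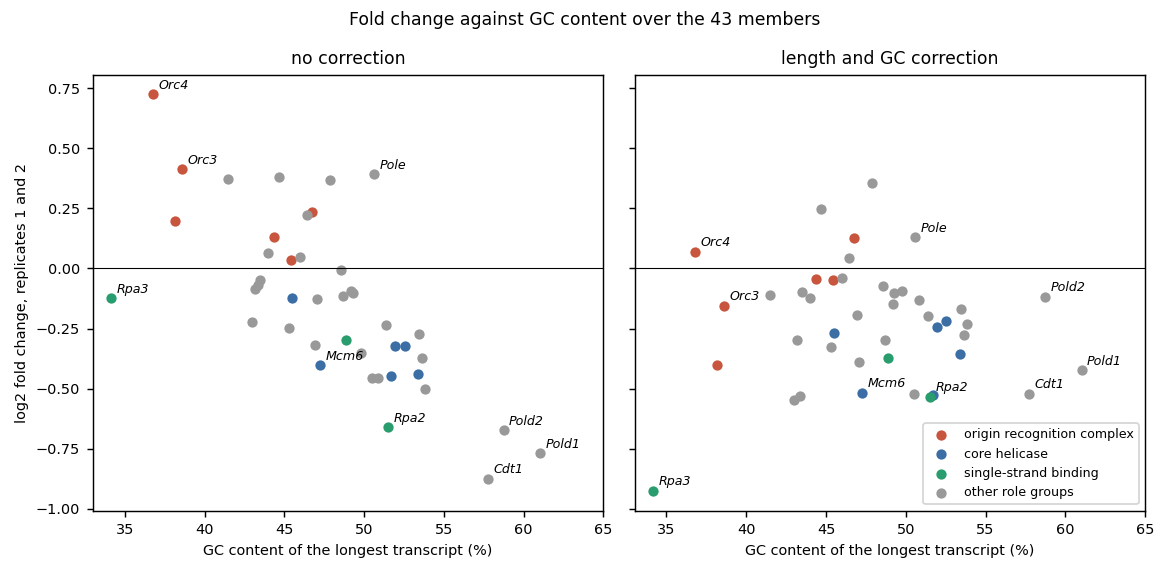
Log2 fold change in replicates 1 and 2 against GC content (%) for the 43 members, as counted (left) and after the length and GC correction (right), with origin recognition genes in red, core helicase genes in blue, RPA genes in green and the others in grey. Orc4 lies at 0.72 and Cdt1 at -0.87 on the left and at 0.07 and -0.52 on the right, where the helicase genes remain below 0 and the points show little slope.

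The 6 genes of the origin recognition complex were the only role group with a median above 0 as counted, both with all 6 libraries (log2 0.10) and with replicates 1 and 2 (log2 0.22), and the latter became -0.046 after the length and GC correction. Orc4, on chromosome 2 (48902824 to 48950277), had 46.2, 47.4 and 65.8 CPM in control replicates 1, 2 and 3, and 74.6, 77.9 and 58.0 CPM in the exposed ones. Exposed replicates 1 and 2 lay above every control, and control replicate 3 lay above exposed replicate 3. Orc4 had a log2 fold change of 0.40 (SE 0.18, adjusted p = 0.692) with all 6 libraries and of 0.72 (SE 0.091, adjusted p = 0.00625) with replicates 1 and 2, the smallest adjusted p of any member there. After the correction these became 0.047 (SE 0.10) and 0.07 (SE 0.12, adjusted p = 0.732). Its transcript is among the most AT-rich of the members (36.77% GC), and 7.8% of its exon bases overlap genes on the other strand.

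Orc3 had 85.1, 93.1 and 125 CPM in controls and 117, 117 and 105 CPM in exposed ovaries, so that control replicate 3 exceeded every exposed library. Its log2 fold change with replicates 1 and 2 was 0.41 (SE 0.091, adjusted p = 0.0178), and the correction turned it to -0.15 (SE 0.092, adjusted p = 0.295). The corrected sign was also negative with all 6 libraries, at -0.13 against 0.16 as counted. Orc6, the subunit with the highest level per length (23.6 CPM per kb of exon), had 56.4, 55.8 and 60.7 CPM in controls and 56.9, 56.4 and 63.0 CPM in exposed ovaries, and the groups overlapped throughout. Orc1, Orc2 and Orc5 passed in none of the 4 fits, with log2 fold changes between -0.025 and 0.13 over all 6 libraries and, in replicates 1 and 2, between 0.13 and 0.23 as counted and between -0.40 and 0.13 after the correction. Of the exon bases of Orc2, 29.82% overlap Nif3l1 on the other strand.

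Among the loading factors, Cdt1 carries MCM2-7 to the origin. It had the largest negative fold change of all members in replicates 1 and 2 as counted. After the correction Rpa3, Prim2, Rpa2, Rrm1, Mcm2 and Rfc2 were further below 0 there. The level of Cdt1 was 71.6, 48.8 and 36.5 CPM in control replicates 1, 2 and 3, and 29.4, 35.4 and 53.9 CPM in the exposed ones. The controls spread widely among themselves, and exposed replicate 3 lay above control replicates 2 and 3. Cdt1 fell by 0.87 on the log2 scale (SE 0.19, adjusted p = 0.0159) with replicates 1 and 2, and the corrected change was -0.52 (SE 0.15, adjusted p = 0.0594). Over all 6 libraries it was -0.40 (SE 0.29, adjusted p = 0.7).

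Gmnn, whose protein binds and blocks CDT1, is the loader-group gene with the highest level per length (41.7 CPM per kb). It had 73.5, 65.5 and 58.6 CPM in controls and 51.1, 56.4 and 61.2 CPM in exposed ovaries, and exposed replicate 3 lay inside the control range. Gmnn fell by 0.35 on the log2 scale (SE 0.10, adjusted p = 0.0436) with replicates 1 and 2, and its value after the correction was -0.095 (SE 0.10, adjusted p = 0.586). Its value over all 6 libraries was -0.23 (SE 0.13, adjusted p = 0.692). Cdc6, the ATPase that works with the origin recognition complex, had a log2 value of -0.065 (SE 0.20) over all 6 libraries and passed in none of the 4 fits.

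All 6 genes of the core helicase, MCM2-7, had negative fold changes in each of these 4 fits, as did the loading factors, the flap nuclease and ligase and the RPA genes. The group includes the most abundant members, since Mcm6 (94.3 CPM per kb), Mcm5 (84.2) and Mcm3 (79.0) have the highest levels per length of all 43 members. Its summed level was 2022, 1831 and 1968 CPM in control replicates 1, 2 and 3, and 1458, 1518 and 1991 CPM in the exposed ones. Exposed replicates 1 and 2 lay below every control, and exposed replicate 3 lay among the controls. With replicates 1 and 2 as counted, 4 of the 6 were called lower (Mcm2, Mcm3, Mcm6, Mcm7), beside 12.9% of all tested genes. After the correction 3 of them were (Mcm2, Mcm6, Mcm7), beside 7.3%. The group's median log2 fold change was -0.36 and, corrected, -0.31. With all 6 libraries it was -0.21 in both versions, and 0 of the 6 were called.

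Mcm6 (ENSMUSG00000026355, chromosome 1, 128331590 to 128359664) showed this pattern most steadily. It had 489, 455 and 527 CPM in controls and 351, 353 and 464 CPM in exposed ovaries. Even exposed replicate 3 lay below 2 of the 3 controls. With replicates 1 and 2, Mcm6 fell by 0.40 (SE 0.091, adjusted p = 0.0191) as counted and by 0.52 (SE 0.11, adjusted p = 0.0214) after the correction, on the log2 scale. With all 6 libraries the values were -0.33 (SE 0.15, adjusted p = 0.692) and -0.37 (SE 0.13, adjusted p = 0.524).

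In Mcm2, a subunit phosphorylated by the CDC7 kinase when origins fire, exposed replicate 3 stood above control replicates 2 and 3. The gene had 254, 208 and 199 CPM in controls and 162, 171 and 246 CPM in exposed ovaries. Mcm7 likewise had 342, 315 and 319 CPM in controls and 242, 236 and 345 CPM in exposed ovaries, with exposed replicate 3 above every control. In replicates 1 and 2 the corrected log2 fold changes were -0.53 (SE 0.12, adjusted p = 0.029) for Mcm2 and -0.36 (SE 0.097, adjusted p = 0.0476) for Mcm7. With all 6 libraries the corrected values were -0.22 (SE 0.18, adjusted p = 0.678) and -0.23 (SE 0.13, adjusted p = 0.577). Of the exon bases of Mcm7, 8.7% overlap Ap4m1 and Cops6 on the other strand. Mcm3 was called lower as counted (log2 -0.32, adjusted p = 0.0419) and not after the correction (-0.22, adjusted p = 0.179). Mcm5 missed the threshold as counted with a like fold change (-0.32, adjusted p = 0.0504), and Mcm4 had the smallest change of the 6 as counted (-0.12, adjusted p = 0.391).

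**Figure D5:**
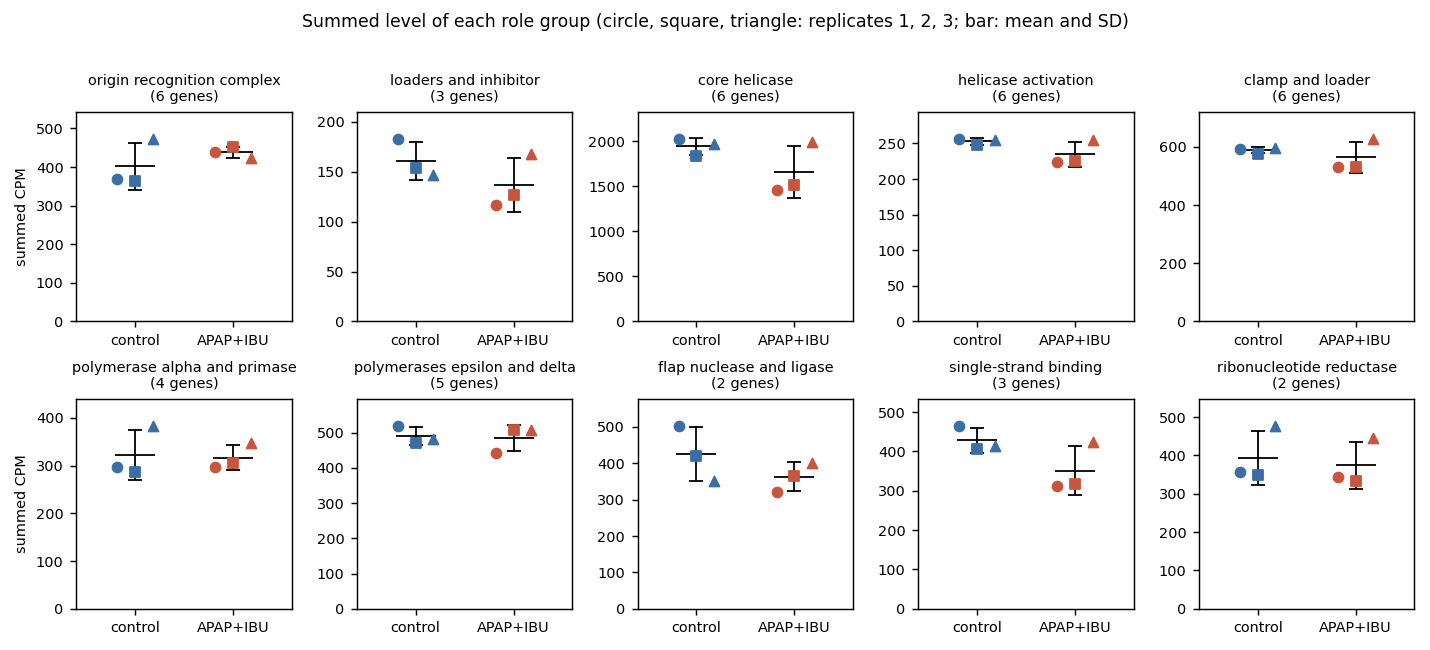
Summed CPM of the genes of each role group in each library, with controls in blue, APAP+IBU in red, replicates 1, 2 and 3 as circle, square and triangle, and bars for the mean and SD of 3 libraries. In several role groups the circle and square of APAP+IBU lie below all 3 controls and the triangle does not. These are the loaders and inhibitor, core helicase, helicase activation, clamp and loader, RPA and reductase genes. For the origin recognition genes the triangle is the highest control.

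Of the genes that turn the loaded ring into a moving helicase, Gins4 had the lowest p as counted. This GINS subunit had 44.5, 42.3 and 40.1 CPM in controls and 31.2, 31.2 and 39.9 CPM in exposed ovaries, so the groups did not overlap, although exposed replicate 3 almost reached control replicate 3. Gins4 fell by 0.45 (SE 0.10, adjusted p = 0.0189) in replicates 1 and 2 and had -0.31 (SE 0.15, adjusted p = 0.692) with all 6 libraries. The correction brought both near 0, to -0.13 (SE 0.098, adjusted p = 0.4) and -0.12 (SE 0.11). In the corrected fit of replicates 1 and 2, Mcm10, Gins1, Gins2 and Gins3 lay further from 0 than Gins4. The other 5 genes (Mcm10, Cdc45, Gins1, Gins2, Gins3) passed in none of the 4 fits, and Gins3 had the only positive value, a log2 fold change of 0.37 (SE 0.12, adjusted p = 0.0617) in replicates 1 and 2. For Gins2, 67.32% of the exon bases overlap Gse1 on the other strand. The strand setting of the counting is not given in the sources used here, so reads of such pairs may not have been told apart. Some exon overlap with a gene on the other strand was present in 13 members.

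Of the sliding clamp and its loader, only Rfc2 was called. This loader subunit had 113, 112 and 81.4 CPM in control replicates 1, 2 and 3, and 82.5, 78.9 and 100 CPM in the exposed ones. Control replicate 3 thus lay among the exposed libraries. Exposed replicate 3 lay above the other exposed libraries and below control replicates 1 and 2. Rfc2 fell by 0.46 (SE 0.088, adjusted p = 0.012) in replicates 1 and 2 and by 0.52 (SE 0.088, adjusted p = 0.0143) after the correction. Across all 6 libraries, it had -0.23 (SE 0.17, adjusted p = 0.7), and 15.1% of its exon bases overlap Lat2. Rfc4, the loader subunit with the highest level per length (53.4 CPM per kb), was nearly flat, with 84.5, 83.2 and 83.7 CPM in controls and 76.0, 83.9 and 79.4 CPM in exposed ovaries. Of its exon bases 12.65% overlap Eif4a2 on the other strand. Pcna, the clamp that holds the polymerases on DNA and a gene with 2 annotated pseudogenes, averaged 119 ± 11.4 CPM over the 3 controls and 117 ± 23.7 CPM over the 3 exposed libraries (mean ± SD), with a log2 fold change of -0.027 (SE 0.16) with all 6 libraries and -0.25 (SE 0.094, adjusted p = 0.09) with replicates 1 and 2.

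The subunits of polymerases alpha, epsilon and delta moved in both directions in replicates 1 and 2 as counted. Pole, the catalytic subunit of the leading-strand polymerase epsilon, had 184, 201 and 273 CPM in controls and 231, 268 and 232 CPM in exposed ovaries, with control replicate 3 the highest of all. Pole rose by 0.39 on the log2 scale (SE 0.10, adjusted p = 0.0326) in replicates 1 and 2, and had 0.13 (SE 0.10, adjusted p = 0.419) after the correction and 0.15 (SE 0.17, adjusted p = 0.775) as counted with all 6 libraries. Pola1, which extends the primers made by primase, rose by 0.37 (SE 0.086, adjusted p = 0.0204) and had -0.11 (SE 0.11, adjusted p = 0.529) after the correction and 0.052 (SE 0.22, adjusted p = 0.941) as counted with all 6 libraries. Pole2, an accessory subunit with one of the lowest levels per length (6.4 CPM per kb), had 13.5, 15.5 and 21.5 CPM in controls and 20.2, 17 and 23 CPM in exposed ovaries, and passed in none of the 4 fits. Of its exon bases 8.5% overlap Gm49384 on the same strand.

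Pold1 and Pold2, the catalytic and a small subunit of the lagging-strand polymerase delta, went the opposite way. Pold1 had 164, 113 and 60.5 CPM in control replicates 1, 2 and 3, and 68.5, 91.5 and 111 CPM in the exposed ones. The controls alone thus spanned more than the whole exposed group. Pold1 fell by 0.77 (SE 0.19, adjusted p = 0.027) and Pold2 by 0.67 (SE 0.15, adjusted p = 0.0176) in replicates 1 and 2. After the correction these were -0.42 (SE 0.13, adjusted p = 0.0726) and -0.12 (SE 0.11, adjusted p = 0.517). In the fit of all 6 libraries Pold1 had -0.31 (SE 0.34, adjusted p = 0.767) and Pold2 -0.25 (SE 0.27, adjusted p = 0.771) as counted. Pold2 had 61.4, 46.2 and 30.3 CPM in controls and 31.5, 35.0 and 49.8 CPM in exposed ovaries, with the control replicate 3 again the lowest library. Pold3 was almost constant, with 95.7, 95.2 and 96.3 CPM in controls and 92.5, 95.0 and 92.5 CPM in exposed ovaries. Its groups did not overlap, but the difference was a log2 fold change of -0.037 (SE 0.10, adjusted p = 0.91).

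Primase makes the RNA primers at the fork. Prim1, its catalytic subunit, had 86.8, 84.0 and 108 CPM in controls and 86.3, 89.8 and 94.5 CPM in exposed ovaries, so that the exposed libraries lay inside the control range. Prim2 had 67.1, 69.6 and 77.1 CPM in controls and 53.7, 62.0 and 77.1 CPM in exposed ovaries. As counted, Prim2 had -0.22 (SE 0.10, adjusted p = 0.147) in replicates 1 and 2, and -0.55 (SE 0.11, adjusted p = 0.021) after the correction. Over all 6 libraries it had -0.15 (SE 0.16) as counted and -0.29 (SE 0.16, adjusted p = 0.573) after the correction. Pola2, which tethers primase to the polymerase, had -0.39 (SE 0.11, adjusted p = 0.0558) in replicates 1 and 2 after the correction.

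Fen1, which cuts the flaps of Okazaki fragments, had 115, 98.7 and 84.9 CPM in controls and 72.2, 76.6 and 103 CPM in exposed ovaries. It fell by 0.50 (SE 0.10, adjusted p = 0.0146) in replicates 1 and 2 and had -0.23 (SE 0.10, adjusted p = 0.161) after the correction and -0.24 (SE 0.18, adjusted p = 0.7) as counted with all 6 libraries. For this gene 84.19% of the exon bases overlap Gm10143 and Tmem258 on the other strand, so its count is uncertain. Lig1, the ligase that seals the fragments, had 387, 323 and 267 CPM in controls and 250, 290 and 298 CPM in exposed ovaries. In replicates 1 and 2 Lig1 missed the threshold in edgeR (log2 -0.37, SE 0.12, adjusted p = 0.0559) and passed it in DESeq2 (log2 -0.38, adjusted p = 0.0207), and it had -0.28 (adjusted p = 0.168) after the correction in edgeR. Across all 6 libraries, it had -0.22 (SE 0.16, adjusted p = 0.7).

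The products of the RPA genes form the trimer that covers single-stranded DNA. All 3 genes were called lower in replicates 1 and 2 after the correction, beside 7.3% of all tested genes. No other role group was called in full, but the groups differ in size, and Rpa3 was not called as counted. Their summed level was 463, 407 and 413 CPM in controls and 312, 318 and 423 CPM in exposed ovaries. Rpa2 (ENSMUSG00000028884, chromosome 4, 132768332 to 132778752) had 237, 191 and 162 CPM in control replicates 1, 2 and 3, and 131, 135 and 174 CPM in the exposed ones. Exposed replicate 3 overlapped the controls only through control replicate 3. Over all 6 libraries Rpa2 was the member with the lowest p as counted, at -0.42 (SE 0.18, adjusted p = 0.692). After the correction it had -0.36 (SE 0.14, adjusted p = 0.524), and Rpa3 and Mcm6 had lower unadjusted p. With replicates 1 and 2, Rpa2 fell by 0.66 (SE 0.12, adjusted p = 0.00953) and, corrected, by 0.53 (SE 0.12, adjusted p = 0.0271).

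Rpa1, the large subunit, had 184, 175 and 211 CPM in controls and 144, 143 and 210 CPM in exposed ovaries, and fell by 0.30 (SE 0.086, adjusted p = 0.0415) and, corrected, by 0.37 (SE 0.091, adjusted p = 0.0349) in replicates 1 and 2. In the fit of all 6 libraries Rpa1 had -0.19 (SE 0.18, adjusted p = 0.738) and, corrected, -0.21 (SE 0.15, adjusted p = 0.626). Rpa3, the smallest subunit, depended on the correction. It had 43.1, 40.3 and 40.2 CPM in controls and 36.4, 39.1 and 38.6 CPM in exposed ovaries, groups that did not overlap although they differed by little. As counted, Rpa3 had -0.12 (SE 0.10, adjusted p = 0.404) in replicates 1 and 2, and corrected, it had -0.93 (SE 0.14, adjusted p = 0.0129). Over all 6 libraries the values were -0.12 (SE 0.12, adjusted p = 0.758) and -0.61 (SE 0.21, adjusted p = 0.524). Rpa3 is at once the shortest and the most AT-rich member, and its fold change moved more with the correction than that of any other member.

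The ribonucleotide reductase genes differed from each other. Rrm2, the subunit whose level follows S phase and the one with the higher level per length (43.5 CPM per kb), had 102, 101 and 154 CPM in controls and 104, 103 and 158 CPM in exposed ovaries. Replicate 3 was the highest library of each group, the groups overlapped fully, and the log2 fold change was 0.03 (SE 0.23) with all 6 libraries and 0.048 (SE 0.085, adjusted p = 0.708) with replicates 1 and 2. Rrm1, the large subunit, had 253, 248 and 321 CPM in controls and 241, 231 and 287 CPM in exposed ovaries. As counted it had -0.067 (SE 0.088, adjusted p = 0.601) in replicates 1 and 2, and corrected, -0.53 (SE 0.10, adjusted p = 0.0192). Across all 6 libraries, Rrm1 had -0.12 (SE 0.15, adjusted p = 0.799) and, corrected, -0.31 (SE 0.15, adjusted p = 0.539).

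A list of 39 other replication genes, which cover origin firing, chromatin assembly and nucleotide supply, gave 0 calls over all 6 libraries. Their median log2 fold change was -0.029. At an unadjusted p under 0.05, 0 were higher (3% of all tested genes were) and 2 lower (3.21%). Those 2 were Ssrp1, a subunit of the histone chaperone FACT, and Dut, the dUTPase that keeps uracil out of DNA. Dut had 134, 112 and 103 CPM in controls and 70.3, 65.9 and 102 CPM in exposed ovaries, below every control, by less than 1 CPM for exposed replicate 3. Its log2 fold change was -0.55 (SE 0.19, adjusted p = 0.692) over all 6 libraries. Ssrp1 had 439, 435 and 413 CPM in controls and 313, 310 and 370 CPM in exposed ovaries, and -0.37 (SE 0.13, adjusted p = 0.692). With replicates 1 and 2, 7 of the 39 rose (14.2% of all tested genes did) and 6 fell (12.9%) as counted, and 0 rose (5.83%) and 7 fell (7.3%) after the correction. Chaf1a, a subunit of the chromatin assembly factor CAF-1, had the next lowest p among the lower genes (-0.26, SE 0.14, adjusted p = 0.692). Rrm2b, the p53-inducible reductase subunit, Cdc7, the kinase that fires origins, and Atad5, which unloads the clamp, had the lowest p among the higher genes, at log2 0.41 (SE 0.21), 0.25 (SE 0.14) and 0.47 (SE 0.26).

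The E2F family itself was taken as 13 genes with the DP partners and the pocket proteins. It had 0 calls over all 6 libraries and a median log2 fold change of 0.088. At an unadjusted p under 0.05 it had 0 in either direction, beside 3% higher and 3.21% lower of all tested genes. In replicates 1 and 2, 5 rose and 1 fell as counted, beside 14.2% and 12.9% of all tested genes, and 0 rose and 0 fell after the correction, beside 5.83% and 7.3%. Members with an E2F-type motif and members without one had similar medians in the corrected fit of replicates 1 and 2, at log2 -0.22 over 15 genes and -0.21 over 20 genes. The tested genes with the motif that are not members had -0.030 over 551 genes. The 25 mitotic genes, described only as a neighbouring list, had a median of -0.072 with all 6 libraries and 0 calls. In replicates 1 and 2, 3 of them rose and 6 fell as counted, and 0 rose and 6 fell after the correction, to be read beside the same shares of all tested genes, with a corrected median of -0.20, beside -0.20 for the members. The difference between the lists was not tested.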

How the data were processed

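Polyadenylated RNA of 3 control and 3 APAP+IBU pools of 13.5 dpc ovaries was sequenced as stranded, paired-end libraries. Per the labels and the submitters' processing notes, the authors used bcl2fastq 2.17.1.14, TopHat2 2.0.14 and Bowtie2 2.1.0 on mm10 and HTSeq 0.6.1 with Ensembl annotation (release 86). They deposited raw counts, without normalisation, of 48709 genes. The strand setting of the counting is not given in the sources used here.

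The deposited counts were analysed in R 4.3.3 with the quasi-likelihood test of edgeR 4.0.16 after TMM scaling and its expression filter, adjusted over all tested genes by the Benjamini-Hochberg method at 0.05. Tested were 20167 genes with 6 libraries and 20633 with replicates 1 and 2 of each group. The SE of an edgeR fold change was derived as the absolute log2 fold change divided by the square root of the F statistic of its test. DESeq2 1.42.0 without shrinkage was an alternative. Log2 CPM used a prior count of 1. The length and GC correction fitted a loess curve (span 0.3) in each library and entered edgeR as offsets, and 20103 genes had both properties. Names, positions, summed exon length and GC content of the longest transcript came from GENCODE M21 on GRCm38, the assembly of mm10, a later annotation than that of the authors. Promoter windows came from RefSeq on GRCm38.p6. Scripts were tested on simulated counts.

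Samples were grouped and numbered by their labels. Chi-square per degree of freedom between libraries within a group was 18.8 to 158, so none was a duplicate. The members, the other lists and the tests, including the fits to replicates 1 and 2, were chosen with earlier results of these data known. The values of every library are given for the member with the highest CPM per kb and the one with the lowest p of each role group, for members with p under 0.05 or non-overlapping groups in all 6 libraries, and for the 3 largest changes each way in replicates 1 and 2. Mcm2, Mcm7 and Rpa1 were added after their values were seen.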

Additional observations from a re-analysis of the deposited data

How the results depend on the processing

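With all 6 libraries, 0 members were called under every alternative that kept at least 5 libraries: other scalings, other filters, DESeq2, the replicate block, the length and GC correction and leaving out any 1 library (0 to 0). Calls among the members appeared only in replicates 1 and 2, where there were 17, 9 with the length and GC correction, 19 with DESeq2 and 11 with a replicate block. The calls over all tested genes, 0 with all 6 libraries, were 120 with all genes of at least 1 count, 192 with DESeq2 and 0 to 1064 when 1 library was left out, the highest without control replicate 3, and in replicates 1 and 2 they were 5607, 2709 with the correction, 5832 with DESeq2 and 3817 with a replicate block. Members with an unadjusted p under 0.05, 1 as reported, were 3 with upper quartile scaling, 0 with total counts, 2 with all genes of at least 1 count, 3 with the length and GC correction, 0 to 11 when 1 library was left out, and in replicates 1 and 2 they were 26 (7 higher, 19 lower), 19 with the correction (1 higher, 18 lower), 24 with DESeq2 (6 higher, 18 lower, beside 18.2% and 18.7% of all tested genes) and 20 with a replicate block (5 higher, 15 lower, beside 18.2% and 17.1%). The members' median of -0.096 became -0.20 in replicates 1 and 2 with the correction and ran from -0.24 without APAP+IBU replicate 3 to -0.053 without APAP+IBU replicate 1. The cause of these moves was not tested. Other scalings shifted the median of all genes by 0.035 at most.

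The labels tie same-numbered libraries together by nothing but the number. The methods describe independent experiments, each with control and exposed dams, and do not say whether same-numbered libraries shared an experiment. Between same-numbered libraries, the correlations of the deviations from the group means were -0.07, -0.015 and -0.044, although replicate 3 of both groups has high liver RNA. With the replicate block, 2 of all tested genes and 0 members were called. At an unadjusted p under 0.05 there were 0 members, beside 1.48% higher and 1.89% lower of all tested genes. With the block and the length and GC correction together, 34 of all tested genes were called. At an unadjusted p under 0.05 this fit had 0 members higher (3.36% of all tested genes) and 2 lower (3.07%).

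Some fold changes changed sign. With upper quartile scaling this was so for Orc6 (-0.00059) and Rrm2 (-0.0017), with the length and GC correction for Orc3 (-0.13) and Pold2 (0.0045), with the replicate block and that correction for Orc3 (-0.13) and Pold2 (0.0026), and in replicates 1 and 2 for Prim1 (0.064, 0.057 with DESeq2, 0.064 with a replicate block) and, corrected, for Orc3 (-0.15), Orc6 (-0.048) and Rrm2 (-0.041). Leaving out 1 library gave ranges that cross 0 for Orc6 (-0.0498 to 0.067), Prim1 (-0.11 to 0.079), Pold1 (-0.61 to 0.061), Pold2 (-0.49 to 0.017), Rrm1 (-0.24 to 0.013) and Rrm2 (-0.23 to 0.26). Over the 22 members named by the rule, 233 of the other values kept their direction and side of the threshold, 41 came to pass it in replicates 1 and 2, and 124 were unchanged in both respects when 1 library was left out. Depth sets little limit here, since no member had fewer than 514 counts in any library. The small number of pools per group limits what can be told apart.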
